A study of Mus musculus with 42 samples.

Results

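The respiratory chain genes of the nucleus were followed through reprogramming of mouse fibroblasts into induced pluripotent stem cells (iPSC), the stem cells obtained from body cells by forced expression of transcription factors. A gene was taken as a member where its name in both count tables starts with Nduf, Uqcr or Atp5, is Sdha, Sdhb, Sdhc or Sdhd, or starts with Cox followed by a digit of the nuclear subunits. After 6 names ending in -ps were left out, 92 of 48321 names remained. They are 43 names of complex I, 4 of complex II, 8 of complex III, 20 of complex IV and 17 of complex V. Complex I comprises 7 core subunits, 29 accessory subunits and 7 assembly factors named Ndufaf, and complex IV includes 8 alternative or tissue-type isoforms. Ndufa4 and its paralog Ndufa4l2 carry complex I names and were placed with complex IV, where Ndufa4 resides. The names were taken from the tables and not from measured values.

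The respiratory chain sits in the inner mitochondrial membrane. Complexes I and II pass electrons from NADH and succinate to ubiquinone, complex III passes them on to cytochrome c, complex IV reduces oxygen, and complex V (ATP synthase) uses the proton gradient that complexes I, III and IV build. The mitochondrial genome encodes a few catalytic subunits, and the nucleus encodes the others together with the assembly factors. Fibroblasts are known to rely on respiration more than pluripotent cells do, which take more of their energy from glycolysis. Several complex IV subunits have a second gene that is used in particular tissues: Cox6b2, Cox7b2 and Cox8c in male germ cells, Cox6a2, Cox7a1 and Cox8b in muscle, Cox4i2 in lung and at low oxygen.

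RNA-seq counts of 42 libraries in 14 groups of 3 were used, in 2 tables of 21 libraries each. The naivex2 set comes from embryos of B6;129S4-Tg(Tet1-mCherry)B37Koh mice bred with B6;CBA-Tg(Pou5f1-EGFP)2Mnn/J mice, with both reporter transgenes heterozygous (Tg(mCherry)/wt; Tg(GFP)/wt). It holds the parental embryonic fibroblasts (MEF, day 0), mCherry+/GFP- cells of day 10, mCherry+/GFP+ and mCherry+/GFP- cells of days 12 and 14, and clonal iPSC. The totalx2 set (B6-Tet1tm1.1Koh mice bred with B6;129S4-Pou5f1tm2Jae/J mice) has its reporters at Tet1 and Pou5f1 themselves by allele name. It holds mCherry+/GFP- cells of day 8 and mCherry+/GFP+ and mCherry+/GFP- cells of days 10 and 12. The second table also holds clonal iPSC with mutant Tet1 on both chromosomes (KO, mut/mut;GFP/wt) and with wild-type Tet1 (WT, wt/wt;GFP/wt) from B6-Tet1tm1Koh mice bred with B6;CBA-Tg(Pou5f1-EGFP)2Mnn/J mice. All samples are labelled male. Sorted cells came from 3 lines each, and iPSC were grown on feeder cells to passage 6 or 7 and then freed of them, so each iPSC replicate is 1 clonal line. The title of totalx2 day 12 mCherry+/GFP- replicate 2 lacks the mark of mCherry, and its gate rests on its source name. Below, GFP+ and GFP- stand for the mCherry+/GFP+ and mCherry+/GFP- cells. Groups were compared within a table, since the 2 tables were counted apart and hold different groups.

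Library totals ran from 6540256 to 20783265 counts. The member genes took 0.603% to 1.094% of them. Levels are given as CPM, counts scaled to the library total and by TMM factors (trimmed mean of M-values, which sets libraries to a common level of most genes), and they are not corrected for gene length, so levels of different genes were not compared. Tet1 was at 54.3, 58.6 and 57.2 CPM in the KO clones, against 1301, 822 and 873 CPM in the WT clones. Markers of the labelled cells were present in their groups: 7 fibroblast genes summed to 20480 to 21310 CPM in MEF, and 6 pluripotency genes summed to 2361 to 2492 CPM in naivex2 iPSC, against 1.65 to 2.52 CPM in MEF, where Dppa4 alone of the 6 was at 0. In libraries of whole cell populations, fewer cells of a type and less RNA per cell cannot be told apart.

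The counting left some members with no measurement. Cox4i1, the ubiquitous subunit 4 of complex IV, and Ndufa13, an accessory subunit of complex I, had 0 counts in all 42 libraries. Both genes lie inside a longer gene on the same strand, Cox4i1 within Gm20388 (chr8:119910841-124345722, GRCm38) and Ndufa13 within Yjefn3 (chr8:69887788-69902712), and a read in 2 genes was not counted. Gm20388 held 81606 counts in the first table and 60971 in the second, and Yjefn3 held 682 and 335. These zeros say nothing of the expression of Cox4i1 or Ndufa13. In all, 11 members overlap another gene on their strand. Ndufb8 shares 81.4% of its exonic length with Gm20538, so its level is that of a small remainder of the gene. Reads of Atp5o that fall in Donson were lost in the same way. Members with pseudogene copies, Uqcrh among them, are uncertain, because reads that fit a copy as well may have been lost or assigned to it. After genes with low counts were set aside, 87 members were tested in the first table and 86 in the second. Not tested were Cox4i1, Ndufa13, Cox6a2, Cox8b and Cox8c in both tables, and Cox4i2 in the second.

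A pair of libraries stood apart from their groups in the share of reads from mitochondrially encoded genes. Replicate 1 of naivex2 day 10 GFP- cells had 8.993% and replicate 1 of the WT clones had 12.179% of its counts there, and the lowest library had 1.753%. Summed over the 13 mitochondrially encoded subunits, naivex2 day 10 GFP- cells ran from 27240 to 90030 CPM and WT clones from 26530 to 150600 CPM. Of the 13, 9 had enough counts to be tested in the first table and 8 in the second, so the sums do not measure the others. Nuclear members were shifted in both libraries. Atp5e, the epsilon subunit of ATP synthase, was at 29.2 CPM in the naivex2 day 10 library with the high share, beside 88.0 and 87.2 CPM in the other replicates. In the WT library it was at 29.8 CPM, beside 93.7 and 75.3 CPM. Ndufs5, an accessory subunit of complex I, moved the other way, with log2 differences from the other replicates of 0.93 in the day 10 library and 2.01 in the WT library. Over 86 members the differences of the 2 libraries had a Pearson r of 0.82 and a Spearman rho of 0.822 (across genes, which are not independent replicates). Over 14839 genes without the mitochondrially encoded ones r was 0.622. Both libraries were lower for 49 members, both higher for 20 and opposite for 17. The median member had a log2 difference of -0.18 in the day 10 library and of -0.35 in the WT library. Comparisons with these groups are therefore given with and without these libraries.

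**Figure D1:**
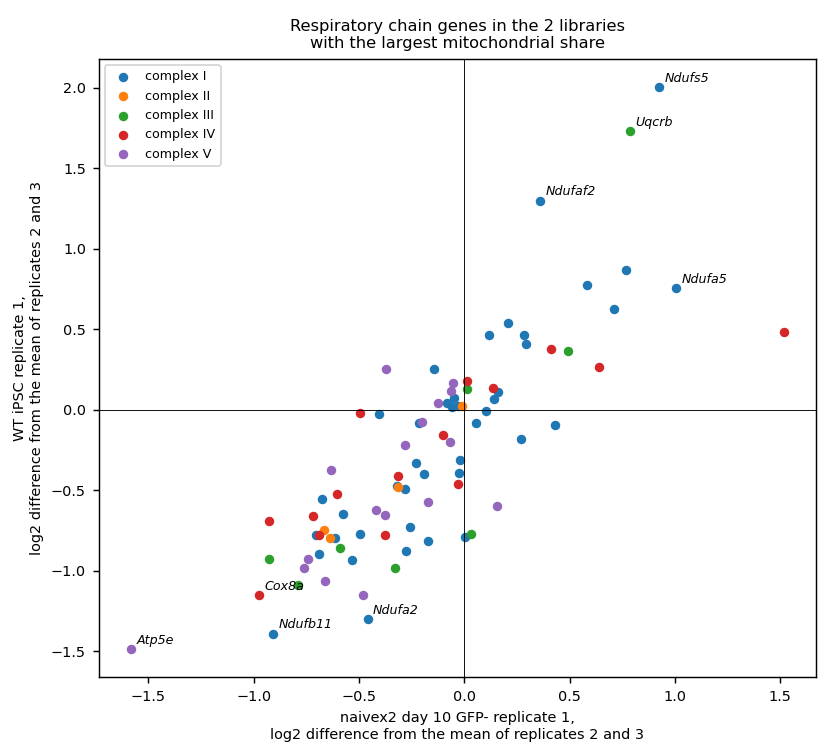
Log2 difference of each tested member between the library with the high mitochondrial share and the mean of the other 2 replicates of its group, naivex2 day 10 GFP- on the x axis and WT iPSC on the y axis, with points coloured by complex. The points run from Atp5e at the lower left to Ndufs5 and Uqcrb at the upper right, with a Pearson r of 0.82 over 86 genes.

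Promoter windows of the members were read from the RefSeq promoter table of GRCm38.p6, each with 250 bases before and 50 after a transcript start. Of the 92 members 76 had a window, 3 of them through a synonym, which gave 82 windows. For 4 motifs both strands were searched, and matches of different motifs overlapped in 0 member windows. The NRF1 motif, GCGC and TGCGC with any base between them, of a factor named for its role at respiratory genes, was in 20 of the 82 windows (24.4%) and in 4.6% of all 32851 windows of the table. The ETS motif CCGGAAG, bound by GABPA among others, was in 20.7% of member windows and 8.86% of all windows. The YY1 motif AAGATGGC was in 14.6% and 2.75%, and the E-box CACGTG, bound by MYC among others, in 11% and 7.15%. The E-box windows were 6 of 20 in complex V, 3 of 40 in complex I and 0 in complexes II, III and IV. Some genes have more than 1 overlapping window and were counted once for each. These were Atp5sl and Ndufa7 for the E-box, Ndufa5 for NRF1 and Atp5sl for YY1. Atp5sl is placed with complex V by its name. In complex IV 1 of 14 windows held NRF1, and the 4 windows of alternative isoforms held none of the 4 motifs. Any of the 4 motifs was in 57.3% of member windows and in 20.2% of all windows, so most windows of the table held none. These are matches of letters and not sites of binding.

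The windows of 6 members on which the results below turn are printed from 5′ to 3′ on the strand of the gene, with motif matches in capitals. Ndufs6 is shown as a subunit that rose early and holds both an NRF1 and a YY1 match. Atp5g1 is the subunit with the deepest fall in totalx2 GFP- cells and has an E-box. Uqcrh is a gene lower in GFP+ than in GFP- cells of totalx2 day 12, with an ETS match. Cox5a, Cox7b2 and Cox6b2 are complex IV genes higher in those GFP+ cells, with no match.
Ndufs6 (chr13:73328433-73328732, minus strand): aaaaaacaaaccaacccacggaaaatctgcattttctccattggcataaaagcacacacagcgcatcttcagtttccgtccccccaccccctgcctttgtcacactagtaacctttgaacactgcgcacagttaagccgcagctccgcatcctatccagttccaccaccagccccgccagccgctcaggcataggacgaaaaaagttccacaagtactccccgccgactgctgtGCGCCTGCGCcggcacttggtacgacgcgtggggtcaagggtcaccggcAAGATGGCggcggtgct
Atp5g1 (chr11:96075582-96075881, minus strand): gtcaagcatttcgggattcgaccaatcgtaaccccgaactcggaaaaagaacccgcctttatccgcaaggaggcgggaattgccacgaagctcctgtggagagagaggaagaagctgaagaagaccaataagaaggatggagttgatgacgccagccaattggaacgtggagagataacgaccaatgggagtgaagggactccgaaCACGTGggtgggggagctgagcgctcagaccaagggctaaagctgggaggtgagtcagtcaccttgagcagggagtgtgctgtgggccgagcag
Uqcrh (chr4:116075021-116075320, minus strand): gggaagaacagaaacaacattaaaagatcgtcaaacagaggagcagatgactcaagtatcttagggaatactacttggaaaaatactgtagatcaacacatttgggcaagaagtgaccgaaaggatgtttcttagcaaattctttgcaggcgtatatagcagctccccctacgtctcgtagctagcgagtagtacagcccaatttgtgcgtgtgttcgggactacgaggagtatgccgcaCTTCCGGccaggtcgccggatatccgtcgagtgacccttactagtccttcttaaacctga
Cox5a (chr9:57520982-57521281, plus strand): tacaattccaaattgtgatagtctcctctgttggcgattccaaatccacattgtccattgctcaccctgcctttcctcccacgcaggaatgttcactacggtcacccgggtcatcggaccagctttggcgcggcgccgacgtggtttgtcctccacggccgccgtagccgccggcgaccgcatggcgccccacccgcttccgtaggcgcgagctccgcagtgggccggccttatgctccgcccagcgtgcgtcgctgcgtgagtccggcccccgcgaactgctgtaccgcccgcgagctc
Cox7b2 (chr5:71548156-71548455, minus strand): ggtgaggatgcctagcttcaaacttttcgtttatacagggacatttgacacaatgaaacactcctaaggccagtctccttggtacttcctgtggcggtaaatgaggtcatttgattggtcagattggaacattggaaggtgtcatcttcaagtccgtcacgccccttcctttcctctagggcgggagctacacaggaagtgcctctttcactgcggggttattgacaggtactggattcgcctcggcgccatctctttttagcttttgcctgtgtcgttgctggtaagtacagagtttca
Cox6b2 (chr7:4753045-4753344, minus strand): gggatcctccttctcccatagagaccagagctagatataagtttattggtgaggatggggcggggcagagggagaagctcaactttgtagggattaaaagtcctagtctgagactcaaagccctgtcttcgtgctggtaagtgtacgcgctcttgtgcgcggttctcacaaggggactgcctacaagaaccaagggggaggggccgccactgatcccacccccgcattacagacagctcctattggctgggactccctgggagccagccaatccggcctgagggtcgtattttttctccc

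The first comparison asked how the chain differs between cells that have begun to express the Tet1 reporter and the fibroblasts they came from. Most members were higher in naivex2 day 10 GFP- cells than in MEF. By edgeR's quasi-likelihood test with Benjamini-Hochberg adjustment at 0.05, 58 of the 87 tested members rose (66.7%) and 4 fell (4.6%), while 38.8% of all 16132 genes tested rose and 37.6% fell. The members' median log2 fold change was 0.36 and that of all genes 0.06. All 7 core subunits of complex I rose, with a median of 0.29, and of all complex I members 29 rose and 2 fell. Complex II had 2 rises and 1 fall, complex III 6 rises, complex IV 12 rises and 1 fall, and complex V 9 rises. With library totals alone in place of TMM the median of all genes was 0.34 and that of the members 0.65, so the members' median lay above that of all genes under both scalings. All 7 fibroblast markers fell and all 6 pluripotency genes rose in the same cells. The fibroblast sum was 783.1 to 1278 CPM in day 10 cells and 20480 to 21310 CPM in MEF, with no marker at 0. Of 4 leukocyte markers (Csf1r, Ptprc, Cd68 and Adgre1) 3 fell and Cd68 rose, and their sum was 12.66 to 18.34 CPM in day 10 cells and 29.83 to 45.59 CPM in MEF. The part of cell make-up in the members' differences was not tested.

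Ndufs6, an accessory subunit of the NADH-oxidising module of complex I, was at 77.4, 67.5 and 75.2 CPM in day 10 cells, against 28.6, 26.8 and 29.2 CPM in MEF. The groups do not overlap, and the log2 fold change was 1.38 ± 0.08 (standard error, adjusted p = 6.3e-13). Ndufv3, of the same module, was at 113, 66.6 and 71.2 CPM in day 10 cells, against 27.3, 25.5 and 25.6 CPM in MEF, with the library of high mitochondrial share on top. Ndufaf6, a complex I assembly factor, rose by 1.26 ± 0.10. Among the falls, Ndufaf4, another assembly factor, was at 35.7, 33.0 and 28.9 CPM in day 10 cells and 44.3, 44.7 and 45.6 CPM in MEF (-0.46 ± 0.12, adjusted p = 0.00211). Ndufa2, an accessory subunit, fell by 0.56 ± 0.12. With library totals alone both falls were not called (-0.19 and -0.27, adjusted p = 0.178 and 0.0593). In complex II, Sdha, the flavoprotein that oxidises succinate, rose by 0.40 ± 0.06 and the membrane anchor Sdhd by 0.31 ± 0.11, while Sdhc was not called. The call on Sdhd was lost without day 10 replicate 2 or 3 (adjusted p = 0.0641 and 0.0667). Sdhb, the iron-sulfur subunit, was at 75.6, 95.5 and 92.7 CPM in day 10 cells, against 111, 96.0 and 105 CPM in MEF (-0.24 ± 0.09). That fall was not called without day 10 replicate 1, or without MEF replicate 1 or 3 (-0.13, -0.17 and -0.23), and with library totals alone its value was 0.05.

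In complex III the small subunits Uqcr10 and Uqcrb rose by 0.71 ± 0.16 and 0.65 ± 0.14, and Uqcrb by 0.36 without day 10 replicate 1. In complex IV, Cox5b rose by 0.75 ± 0.12 and Cox6c by 0.74 ± 0.10, both subunits found in all tissues. In complex V the F1 subunit Atp5a1 was at 1067, 1314 and 1279 CPM in day 10 cells, against 726, 748 and 732 CPM in MEF (0.73 ± 0.07). The deepest changes of complex V names were in factors apart from the enzyme's core. Atp5sl, known in human as the complex I assembly factor DMAC2, was at 48.4, 55.2 and 55.9 CPM in day 10 cells, against 9.97, 8.83 and 10.8 CPM in MEF (2.42 ± 0.11, adjusted p = 1.63e-14). Atp5s, called coupling factor B, was at 19.8, 28.7 and 22.9 CPM in day 10 cells and 8.15, 9.17 and 7.56 CPM in MEF (1.53 ± 0.19).

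Without day 10 replicate 1, the library of high mitochondrial share, 68 of 88 tested members rose and 5 fell, against 38.8% and 37.1% of all genes. Of the 58 rises 56 remained among those 68, and of the 4 falls 3 remained.

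**Figure D2:**
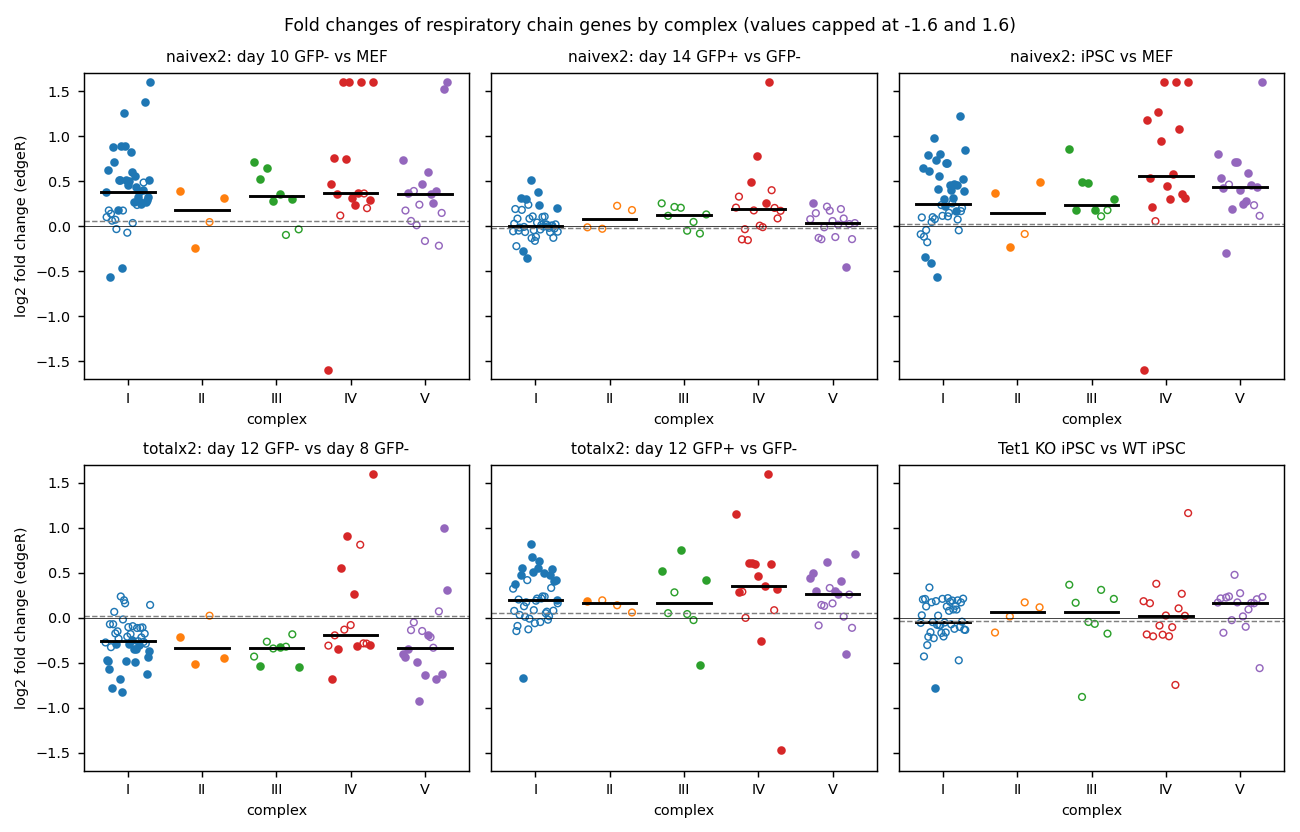
Log2 fold changes of the tested members by complex in 6 comparisons, each panel titled with the group on top of the fold change first. Filled points were called, open points were not, the black bar is the median of the complex and the dashed line the median of all genes; values beyond 1.6 in either direction are drawn at the edge. In day 10 GFP- cells against MEF the members' median is 0.36, in totalx2 day 12 GFP- cells against day 8 cells it is -0.27, and in KO against WT clones 1 member was called.

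iPSC of the same set were compared with the same MEF libraries, which the previous comparison also used. In iPSC 57 of 87 members rose and 6 fell, against 37.9% and 39.4% of all genes, with a median of 0.37 for the members and 0.02 for all genes. Complex IV had 14 rises and 1 fall among 16 tested members, and complex V 13 rises and 1 fall among 17. Cox5a, a complex IV subunit, was at 226, 211 and 221 CPM in iPSC, against 101, 89.6 and 100.5 CPM in MEF (1.18 ± 0.13, adjusted p = 3.78e-08). Day 10 cells held 95.5, 155 and 153 CPM of it. Cox7c, a small complex IV subunit, was at 97.9, 84.8 and 88.5 CPM in iPSC and 43.2, 43.4 and 41.9 CPM in MEF (1.08 ± 0.17). Ndufaf1, a complex I assembly factor, rose by 0.98 ± 0.10. The c-ring gene Atp5g1 was at 66.5, 75.3 and 74.0 CPM in iPSC, above all 3 MEF libraries at 43.0, 44.7 and 44.2 CPM (0.71 ± 0.11). Atp5g2, of the same c-ring, rose by 0.71 ± 0.13 and Atp5g3 by 0.41 ± 0.11. Ndufa8, an accessory subunit of complex I, fell by 0.41 ± 0.09 and Ndufaf4 by 0.56 ± 0.12, and neither was called with library totals alone (-0.12 and -0.27, adjusted p = 0.242 and 0.0561). All 7 fibroblast markers were lower in these iPSC, with a sum of 1205 to 3178 CPM, and 3 of the 4 leukocyte markers were lower. Their part in the members' differences was not tested.

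Across the 7 groups of the first table, 62 of 87 members (71.3%) had their lowest mean in MEF, as did 38.1% of all genes. For 34 members (39.1%) all 3 MEF libraries lay below the other 18 libraries, beside 25.3% of all genes. Only Ndufaf4 and Ndufa2 had all 3 MEF libraries above the other 18, beside 29.3% of all genes. Ndufa9, an accessory subunit of complex I, varied least: its highest group mean was 1.117 times its lowest. Cox6b1, the ubiquitous partner of the germ-cell form Cox6b2, came next at 1.136 times.

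**Figure D3:**
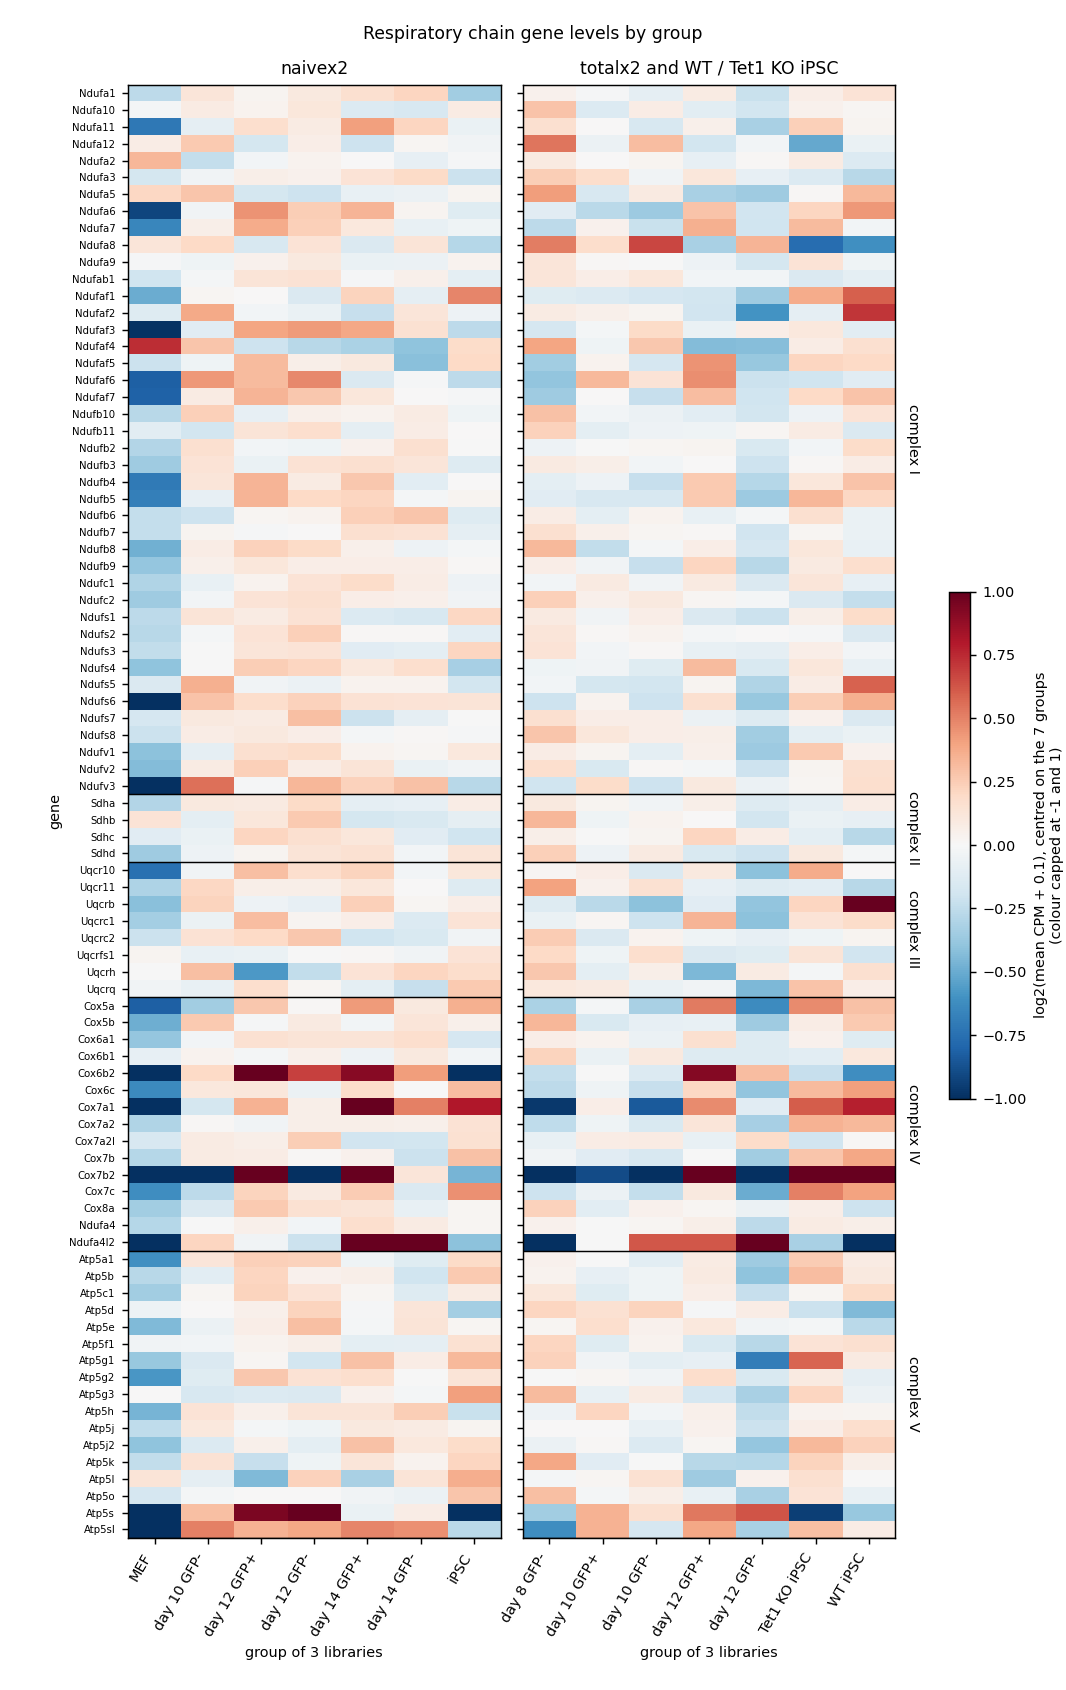
Mean level of each tested member in each group, as log2(mean CPM + 0.1) centred on the 7 groups of its table, with rows by complex and colours capped at -1 and 1; naivex2 is on the left and totalx2 with the KO and WT clones on the right. The MEF column is blue for most genes, 62 of 87 having their lowest mean there, and the totalx2 day 12 GFP- column is the lowest for 50 of 86.

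Within the naivex2 intermediates, GFP- cells of day 14 and day 10 differed little in the members' median. Day 12 GFP- cells were not tested against either day. Their members summed to 9743 to 10420 CPM, against 8475 to 9885 CPM at day 10 and 8792 to 9333 CPM at day 14. Day 14 GFP- cells had 9 members higher and 12 lower than day 10 GFP- cells, against 20.3% and 16.5% of all genes, with a median of -0.02. Of the fibroblast markers 6 of 7 rose (median 1.67), summing to 3114 to 5109 CPM at day 14 and 783.1 to 1278 CPM at day 10, and their part in the members' differences was not tested. Of the leukocyte markers Csf1r alone was called, as higher. The falls include 3 assembly factors, Ndufaf4 (-0.68 ± 0.13), Ndufaf6 (-0.45 ± 0.10) and Ndufaf5 (-0.38 ± 0.12). The call of Ndufaf5 was lost without day 14 replicate 1 or 3 (adjusted p = 0.0945 and 0.0695). Ndufa4l2, a paralog of Ndufa4 that is known as a gene induced by low oxygen, was at 9.004, 12.9 and 12.7 CPM at day 14, against 2.52, 3.83 and 3.99 CPM at day 10 (1.73 ± 0.31, adjusted p = 0.000209). Without day 10 replicate 1 the counts were 5 higher and 22 lower of 88 members, against 18.6% and 16.1% of all genes. Sdhd and Cox8a, not called with it, then fell by 0.18 and 0.19. The 5 rises were all among the 9 and 11 of the 12 falls were among the 22. Of the 22 falls, complex I had 8 of 42 tested, complex II 3 of 4 and complex III 5 of 8. Complexes IV and V had 3 of 17 each. Leaving out day 14 replicate 1 gave 5 higher and 7 lower, and leaving out day 14 replicate 2 or 3 gave 5 higher.

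GFP+ cells of day 14 had 7 members higher and 12 lower than GFP+ cells of day 12, against 14.5% and 16% of all genes. Of the fibroblast markers 5 of 7 rose (median 1.28), summing to 1589 to 2633 CPM at day 14 and 545.8 to 1062 CPM at day 12. Of the leukocyte markers Adgre1 and Csf1r rose and Cd68 fell, with a sum of 17.33 to 20.59 CPM at day 14 and 41.28 to 45.79 CPM at day 12, where Ptprc and Adgre1 were at 0 in all 3 libraries. The part of either in the members' differences was not tested. Ndufa4l2 again stood out, with 10.6, 14.6 and 13.7 CPM at day 14 and 2.88, 2.86 and 2.89 CPM at day 12 (2.17 ± 0.32, adjusted p = 3.73e-05). Uqcrh, the hinge protein of complex III, rose by 0.71 ± 0.11 and Atp5s fell by 1.01 ± 0.17. The 12 falls became 7, 5 and 7 without day 12 GFP+ replicate 1, day 14 GFP+ replicate 1 and day 14 GFP+ replicate 3, and the 7 rises became 4 without day 14 GFP+ replicate 2. iPSC had 16 members higher and 23 lower than day 14 GFP+ cells, against 24.3% and 22.5% of all genes. Beside them, 3 of 7 fibroblast markers were higher in iPSC, and of the leukocyte markers 1 was higher and 1 lower. The rises became 10 without iPSC replicate 1 and 8 without day 14 GFP+ replicate 3. Cox6b2 was at 34.1, 22.6 and 21.5 CPM in iPSC, against 96.2, 104 and 95.7 CPM in day 14 GFP+ cells (-1.92 ± 0.17). Atp5s, Atp5sl and Ndufaf3 were also lower in iPSC (-1.04 ± 0.19, -0.76 ± 0.10 and -0.66 ± 0.17). Atp5l, the g subunit of ATP synthase, was higher in iPSC by 0.69 ± 0.13, and the core subunit Ndufs1 by 0.35 ± 0.06.

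**Figure D4:**
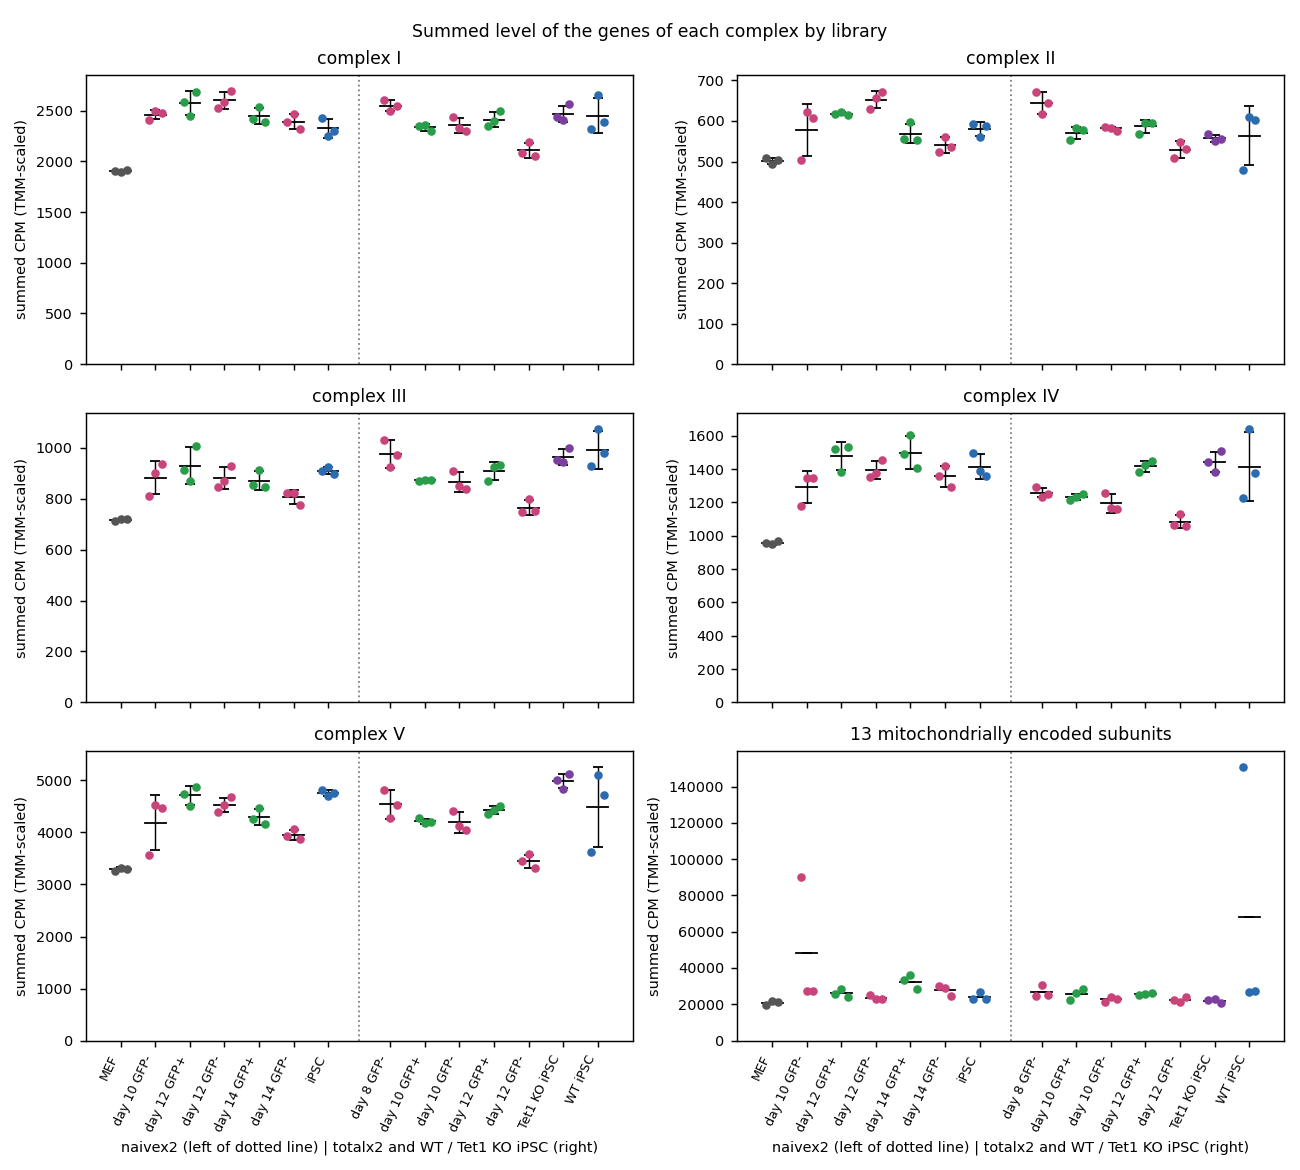
Summed CPM of the members of each complex in every library, with the mean and SD of each group of 3, and, at lower right, of the 13 mitochondrially encoded subunits with the group mean alone; each y axis starts at 0. Complex IV sums to 947.8 to 966.1 CPM in MEF and 1356 to 1498 CPM in naivex2 iPSC, and complex V sums to 3323 to 3577 CPM in totalx2 day 12 GFP- cells, below the other totalx2 groups.

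The GFP reporter is driven by Pou5f1, a pluripotency factor, and GFP+ and GFP- cells of the same day ask whether the chain differs between cells with and without the reporter. Pou5f1 RNA itself was present in both. In naivex2 cells of day 12 it was at 786.8, 727.9 and 800.7 CPM in GFP+ and 633.9, 652.1 and 699.0 CPM in GFP- cells (not called, adjusted p = 0.25), and at day 14 at 865.6, 912.2 and 833.7 CPM in GFP+ and 610.6, 655.8 and 610.3 CPM in GFP- cells (0.48 ± 0.12). In naivex2 few members did. At day 12, 1 member rose and 3 fell in GFP+ cells, against 9.93% and 6.69% of all genes. At day 14, 11 rose and 3 fell, against 14.4% and 16.9%. Atp5l was at 16.8, 15.3 and 15.6 CPM in GFP+ cells of day 12, against 24.3, 23.7 and 28.4 CPM in GFP- cells, with no overlap (-0.68 ± 0.13, adjusted p = 0.0008). At day 14 its log2 fold change was -0.45 ± 0.13, a call that was lost without GFP+ replicate 1 or GFP- replicate 2 (adjusted p = 0.0518 and 0.0537). Ndufa8 fell by 0.30 ± 0.09 at day 12 and by 0.27 ± 0.09 at day 14, and Uqcrh fell by 0.33 ± 0.11 at day 12. The Uqcrh call was lost without any of GFP+ replicate 1, 2 or 3 or GFP- replicate 2 or 3 (adjusted p between 0.0702 and 0.176), the day 12 call of Ndufa8 without GFP+ replicate 1 or 2 or GFP- replicate 2 (0.0918 to 0.127), and its day 14 call without 5 of the 6 libraries, GFP+ replicate 2 being the exception (0.0606 to 0.118). Fibroblast markers summed to 1589 to 2633 CPM in GFP+ and 3114 to 5109 CPM in GFP- cells of day 14, where 3 of 7 fell. Among the rises of day 14, Ndufaf5 rose by 0.52 ± 0.12, Ndufb4 by 0.38 ± 0.11 and Atp5b, the catalytic beta subunit of ATP synthase, by 0.26 ± 0.08. The Atp5b call was lost without GFP- replicate 1 (adjusted p = 0.0543). Tested directly, the GFP difference of day 14 minus that of day 12 had 0 members called in either direction by edgeR and 0 by DESeq2, against 0.688% higher and 0.855% lower of all genes, and 2 members had an unadjusted p below 0.05.

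In totalx2 the GFP- cells changed with time. At day 12, 36 of 86 members were lower and 6 higher than at day 8, against 14.5% and 17.1% of all 15197 genes, with a median of -0.27 for the members and 0.02 for all genes. In complex I 17 fell and 0 rose, in complex II 3 of 4 fell, in complex III 3 of 8 fell, in complex IV 4 fell and 4 rose, and in complex V 9 fell and 2 rose. These rises were of alternative isoforms, a supercomplex factor and factors apart from the ATP synthase core, and of no ubiquitous subunit. Atp5g1, a gene of the c-ring, was at 33.4, 39.3 and 34.0 CPM at day 12, against 63.6, 65.04 and 73.8 CPM at day 8 (-0.93 ± 0.19, adjusted p = 0.000949). Day 10 GFP- cells held 55.5, 54.3 and 51.4 CPM, and all 3 day 12 libraries lay below them. Cox5b, a subunit of complex IV, was lower at day 12 by 0.69 on the log2 scale (-0.69 ± 0.09). Ndufaf4 was at 27.01, 29.01 and 32.7 CPM at day 12 and 57.7, 50.1 and 48.7 CPM at day 8 (-0.82 ± 0.13). Ndufa5, an accessory subunit of complex I, had a log2 fold change of -0.78 ± 0.16, the core subunit Ndufs8 of -0.62 ± 0.15, the subunit Atp5o of the ATP synthase stalk of -0.63 ± 0.11, and Sdhb of -0.51 ± 0.11. The 6 rises were Ndufa4l2, Atp5s, Cox7a1, Cox6b2, Atp5sl and Cox7a2l, a factor of respiratory supercomplexes. Those of Ndufa4l2 and Cox6b2 held without each library in turn. The others were lost without 1 or more libraries: Atp5s without day 12 replicate 1, Cox7a2l without day 12 replicate 1 or day 8 replicate 2, Cox7a1 without day 8 replicate 1 or 2 or day 12 replicate 3, and Atp5sl without replicate 1 or 2 of either day (adjusted p between 0.053 and 0.158).

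The lower count fell to 21 without day 12 GFP- replicate 1 or day 8 replicate 1, to 19 without day 12 GFP- replicate 3 and to 22 without day 8 replicate 3, and the higher count to 3 without day 12 GFP- replicate 1 or day 8 replicate 2. Over the 7 groups of the second table, 50 of 86 members (58.1%) had their lowest mean in totalx2 day 12 GFP- cells, as did 20.2% of all genes. For 12 members, Cox5a, Cox5b, Cox7b, Cox7c, Ndufs6, Ndufb5, Ndufaf2, Atp5a1, Atp5c1, Atp5f1, Atp5h and Atp5j2, all 3 libraries of that group lay below the other 18 (14.0%, beside 7.98% of all genes). Fibroblast markers summed to 8985 to 12120 CPM at day 12 and 12530 to 19510 CPM at day 8, with 1 of the 7 genes higher, 2 lower and none at 0. The part of changing cell make-up in these differences was not tested.

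In totalx2 cells of day 12, the members called were mostly higher in GFP+ than in GFP- cells. Their share of falls lay below that of all genes. Pou5f1 was at 541.2, 563.7 and 571.8 CPM in these GFP+ cells and 365.9, 358.3 and 341.2 CPM in the GFP- cells. In GFP+ cells 36 of 86 rose and 5 fell, against 31.2% and 30.4% of all genes, with medians of 0.22 for the members and 0.05 for all genes. Complex I had 14 rises and 1 fall, complex II 1 rise, complex III 3 rises and 1 fall, complex IV 10 rises and 2 falls and complex V 8 rises and 1 fall. Cox5a was at 203, 215 and 209 CPM in GFP+ cells, against 91.2, 98.2 and 92.5 CPM in GFP- cells, with every GFP+ library far above every GFP- library (1.15 ± 0.14, adjusted p = 8.96e-07). Ndufaf5 rose by 0.82 ± 0.16. Uqcrc1, a core subunit of complex III, was at 285, 305 and 310 CPM in GFP+ cells and 171, 191 and 171 CPM in GFP- cells (0.75 ± 0.15). Ndufs6 was at 63.8, 61.7 and 66.6 CPM in GFP+ cells and 45.4, 48.3 and 38.3 CPM in GFP- cells (0.54 ± 0.12). Atp5g1 rose by 0.62 ± 0.19 and Atp5sl by 0.70 ± 0.11. Against this direction, Ndufa8 was at 45.7, 51.0 and 53.6 CPM in GFP+ cells, below 74.2, 88.0 and 77.1 CPM in GFP- cells (-0.67 ± 0.10, adjusted p = 1.77e-05). Uqcrh was at 81.9, 78.6 and 81.0 CPM in GFP+ cells and 114, 118 and 117 CPM in GFP- cells (-0.53 ± 0.09). Cox7a2l, Atp5l and Ndufa4l2 were the other falls. The call of Atp5l was lost without GFP+ replicate 1, 2 or 3 or GFP- replicate 1 or 2 (adjusted p between 0.0536 and 0.0756), and that of Cox7a2l without GFP+ replicate 2 (0.0601). The number of falls became 3 without GFP+ replicate 1 or 2.

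All 7 fibroblast markers fell in the same GFP+ cells, summing to 2093 to 2521 CPM in GFP+ and 8985 to 12120 CPM in GFP- cells with none at 0, and all 6 pluripotency genes rose, summing to 2121 to 2198 CPM in GFP+ and 529.6 to 636.1 CPM in GFP- cells. Their part in the differences of the respiratory genes was not tested. At day 10, GFP+ cells had 3 members higher and 2 lower, against 13% and 9.36% of all genes. Atp5sl was at 46.0, 47.3 and 44.6 CPM in GFP+ cells, against 37.0, 31.6 and 28.1 CPM in GFP- cells (0.51 ± 0.11), and Ndufa8 was at 68.0, 74.8 and 70.9 CPM, against 107, 105 and 88.2 CPM (-0.49 ± 0.10). Fibroblast markers summed to 4193 to 11080 CPM in GFP+ and 2923 to 8194 CPM in GFP- cells of day 10, with 1 of 7 lower. All 4 leukocyte markers were higher in the GFP+ cells (median 3.07), summing to 23.94 to 64.43 CPM in GFP+ and 7.034 to 11.84 CPM in GFP- cells, and their part in the members' differences was not tested. Leaving out GFP+ replicate 2 or GFP- replicate 3 gave 1 rise, and leaving out GFP+ replicate 3 or GFP- replicate 2 gave 1 fall. The GFP difference of day 12 minus that of day 10 was called higher for 12 members and lower for 1, against 10.6% and 16.7% of all genes, with medians of 0.23 for the members and 0.01 for all genes. It was highest for Cox5a (0.85 ± 0.20, adjusted p = 0.00365). All 7 fibroblast markers and 2 of 4 leukocyte markers were lower in this contrast (medians -2.55 and -2.28). Without each of the 12 libraries in turn the higher count lay between 3 and 9, and it was below 8 without any of them but day 10 GFP+ replicate 1, day 10 GFP- replicate 3 and day 12 GFP- replicate 1. GFP+ cells of day 12 had 10 members higher and 3 lower than GFP+ cells of day 10, against 12.2% and 12.9% of all genes, with Ndufa6, an accessory subunit of complex I, up by 0.56 ± 0.11 and Cox5a by 0.54 ± 0.14. Of the fibroblast markers 6 of 7 were lower at day 12 (median -1.63), summing to 2093 to 2521 CPM at day 12 and 4193 to 11080 CPM at day 10. Of the leukocyte markers 3 of 4 were lower (median -1.75), summing to 23.69 to 30.77 CPM at day 12 and 23.94 to 64.43 CPM at day 10. The part of either in the members' differences was not tested. The higher count was 6 without day 10 GFP+ or day 12 GFP+ replicate 3.

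The alternative isoforms of complex IV followed patterns of their own. Cox7b2, the germ-cell form of subunit 7b, was at 7.05, 6.16 and 6.83 CPM in naivex2 GFP+ cells of day 14, against 0.404, 0.601 and 0.854 CPM in GFP- cells (3.42 ± 0.36, adjusted p = 9.36e-07). At day 12 it was at 3.24, 2.86 and 2.63 CPM in GFP+ cells and 0.189, 0.126 and 0.198 CPM in GFP- cells (4.04 ± 0.49). In totalx2 cells of day 12 the values were 3.48, 2.98 and 5.12 CPM in GFP+ and 0.191, 0.117 and 0 CPM in GFP- cells (4.85 ± 0.54). At day 10 of totalx2 it had 4 counts over the GFP+ libraries and 0 over the GFP- libraries, at least 2.03-fold higher at a floor of 3 counts over the group. All 3 MEF libraries were at 0, and naivex2 iPSC, at 0.495, 0.456 and 0.186 CPM, were at least 5.76-fold higher. Against day 14 GFP+ cells these iPSC had a log2 fold change of -4.12 ± 0.39. WT clones were at 2.27, 1.38 and 1.77 CPM. Cox7b, its ubiquitous counterpart, was at 123, 125 and 107 CPM in naivex2 GFP+ cells of day 14, against 96.7, 106 and 93.0 CPM in GFP- cells (0.26 ± 0.07).

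Cox6b2, the germ-cell form of subunit 6b, was present in every group. It was at 42.1, 66.4 and 72.2 CPM in naivex2 day 10 GFP- cells, against 11.7, 10.4 and 10.2 CPM in MEF (2.48 ± 0.18, adjusted p = 1.25e-10). In totalx2 cells of day 12 it was at 87.0, 82.5 and 84.3 CPM in GFP+ and 55.0, 54.0 and 57.3 CPM in GFP- cells (0.61 ± 0.13). WT clones, at 20.9, 31.7 and 34.6 CPM, lay below the totalx2 GFP+ cells (-1.52 ± 0.14). Cox6b1, the ubiquitous form, was within 91.5 to 129.7 CPM in every library of the second table, and in the first it was not called in day 10 GFP- cells against MEF. The germ-cell markers Dazl, Hormad1, Sohlh2, Rpl10l, Tuba3a and Smc1b all rose in GFP+ cells of naivex2 days 12 and 14 and of totalx2 day 12, where their sum was 68.87 to 96.4 CPM in GFP+ and 0.9426 to 1.384 CPM in GFP- cells. These markers were chosen with earlier results of these data known, so their rise with GFP is not a test of a germ-cell pattern.

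Cox7a1, the muscle form of subunit 7a, was at 1.35, 1.91 and 1.99 CPM in day 10 GFP- cells, against 0.176, 0.252 and 0.177 CPM in MEF (3.11 ± 0.37, adjusted p = 1.54e-07). In iPSC it was at 4.52, 2.57 and 3.54 CPM. In day 10 cells against MEF muscle markers ran the other way: 4 of 5 were tested and all 4 fell. Their sum was 14.25 to 18.17 CPM in day 10 cells and 251.6 to 287.8 CPM in MEF. In iPSC against MEF 1 rose and 3 fell. In naivex2 day 14 against day 10 GFP- cells 3 rose and 0 fell, as in totalx2 day 12 GFP+ against GFP- cells. In totalx2 day 12 against day 8 GFP- cells, where Cox7a1 rose, 1 rose and 0 fell. The part of muscle markers in the Cox7a1 differences was not tested. Ndufa4l2 was at 2.52, 3.83 and 3.99 CPM in day 10 cells, against 0.176, 0.168 and 0.118 CPM in MEF (4.43 ± 0.54). In totalx2 GFP- cells it was at 4.53, 8.22 and 14.8 CPM at day 12 and 0.657, 0.923 and 0.511 CPM at day 8 (3.68 ± 0.58). Its day 12 libraries were far apart from each other, replicate 3 being the highest. Day 12 GFP+ cells, at 1.28, 3.83 and 4.61 CPM, were lower than GFP- cells (-1.47 ± 0.48), a call lost without GFP+ replicate 1 or GFP- replicate 3 (adjusted p = 0.0584 and 0.0992). Cox4i2 was at 0.0841, 0.0660 and 0.142 CPM in day 10 cells, against 0.879, 1.18 and 0.709 CPM in MEF (-3.11 ± 0.61). Cox6a2, the muscle form of subunit 6a, had 0 counts over day 10 cells and 42 over MEF, at least 12.5-fold lower in day 10 cells. Cox8c, another germ-cell form, had 19 counts over iPSC and 0 over MEF, at least 6.07-fold higher in iPSC.

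**Figure D5:**
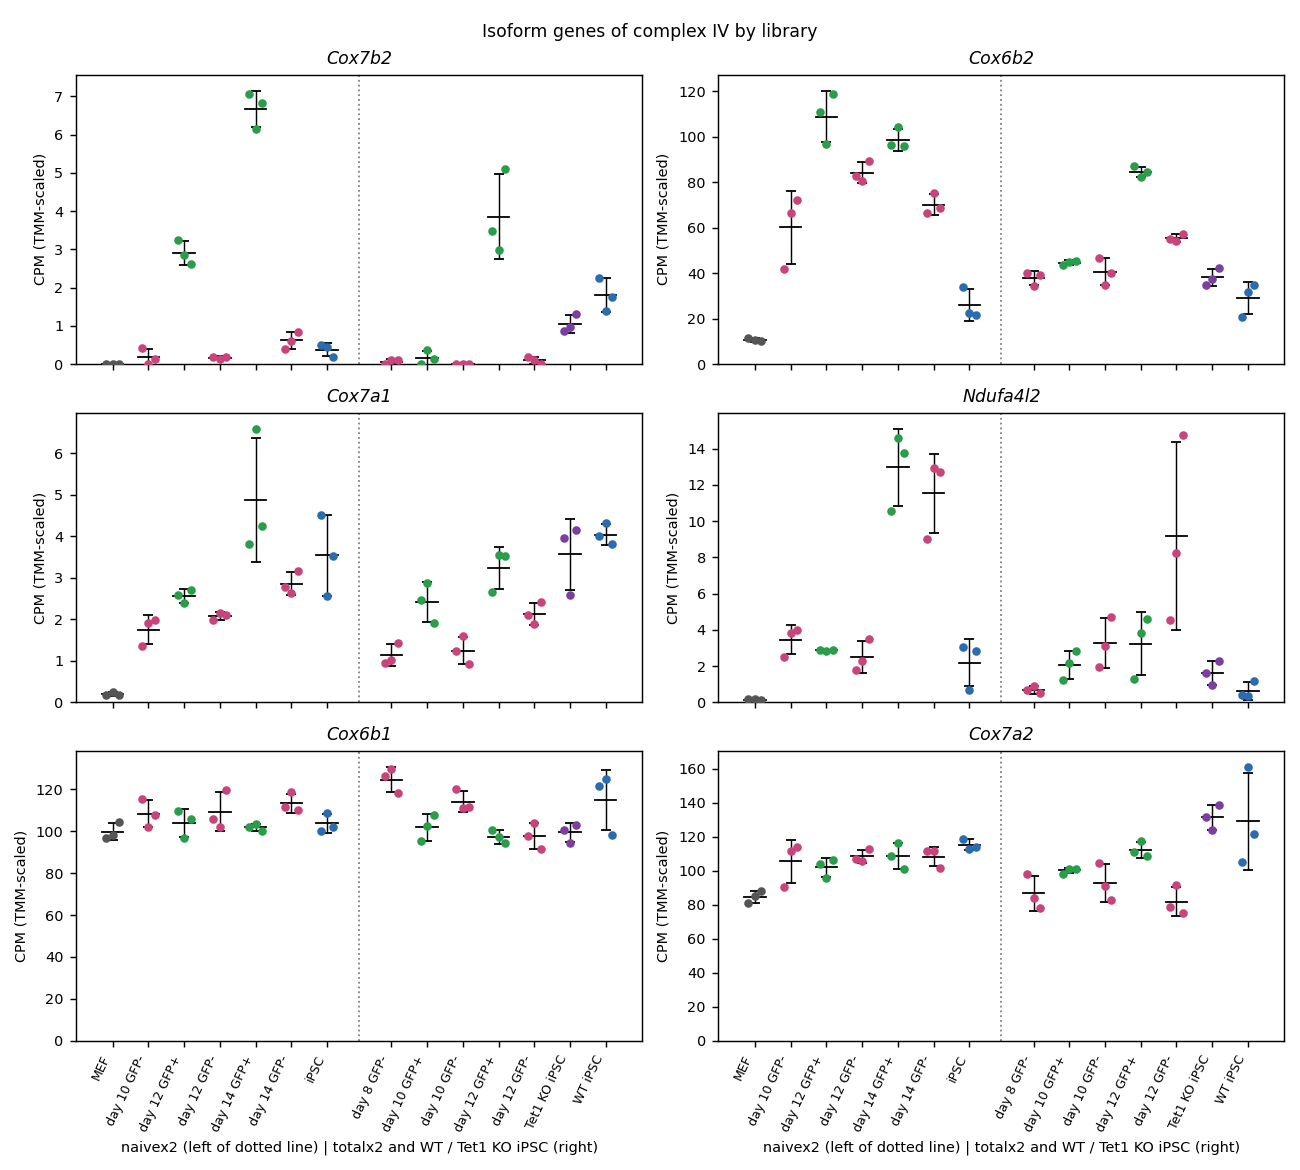
CPM of 4 alternative isoform genes of complex IV and of the ubiquitous Cox6b1 and Cox7a2 in every library, with the mean and SD of each group of 3; each y axis starts at 0. Cox7b2 is between 6.16 and 7.05 CPM in naivex2 day 14 GFP+ cells and at most 0.854 CPM in the GFP- cells of that day, and Cox6b1 varies least, its highest naivex2 group mean being 1.136 times the lowest.

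WT iPSC clones were compared with totalx2 GFP+ cells of day 12, which come from another cross. Of 86 members 11 rose and 11 fell, against 25% and 26% of all genes. Without WT replicate 1, the library of high mitochondrial share, 25 rose and 8 fell, against 24.5% and 25.5% of all genes, and 10 of the rises and 7 of the falls were shared with the full set. Complex V then had 8 rises, among them Atp5k by 0.52 and Atp5g1 by 0.47. Ndufaf1 was at 38.4, 39.8 and 34.9 CPM in WT clones, against 20.3, 22.4 and 22.9 CPM in GFP+ cells (0.78 ± 0.12 with all libraries). Uqcrb, a small complex III subunit, was called at 1.21 ± 0.30 with all libraries, and at 0.41 without the library of high mitochondrial share, which stood 1.73 log2 units above the other WT clones. Leaving out WT replicate 3 gave 19 rises, leaving out WT replicate 2 gave 17 falls, and leaving out GFP+ replicate 2 or 3 gave 7 or 6 falls. Fibroblast markers had 2 higher and 3 lower of 7 in WT clones, and 2 of 4 leukocyte markers were lower.

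Between Tet1 KO and WT clones 1 of 86 members was called and it fell, against 4.78% of all genes higher and 5.87% lower. It was Ndufaf2, a complex I assembly factor, at 21.4, 21.9 and 24.8 CPM in KO clones, against 66.0, 28.6 and 24.9 CPM in WT clones (-0.79 ± 0.23, adjusted p = 0.0361). The highest value is that of the WT library with the high mitochondrial share. Without that library its log2 fold change was -0.23 (adjusted p = 0.177). The call was also lost without KO replicate 1, 2 or 3 (adjusted p = 0.116, 0.111 and 0.0742). DESeq2 called 0 members higher and 3 lower, and 13 had an unadjusted p below 0.05. Without WT replicate 1, Ndufs5 was called higher and Uqcrc1 lower, against 5.31% and 6.06% of all genes, and neither was called with all libraries. Ndufs5 turned sign, with 0.50 without that library and -0.48 with it. Leaving out WT replicate 2 gave 11 higher and 3 lower, and leaving out WT replicate 3 gave 1 higher and 7 lower. No shares of all genes are given for DESeq2 or for these 2 refits, so the counts show only how the calls depend on them. Complex V genes such as Atp5g1 were at 82.6, 87.0 and 87.9 CPM in KO clones, against 33.7, 79.1 and 70.9 CPM in WT clones, where WT replicate 1 is the low value and the comparison was not called. The lack of a call does not show that the clones had equal levels.

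Genes that act beside the chain were taken from lists of mitochondrial transcription, electron carriers and the citric acid cycle. In day 10 GFP- cells against MEF, 8 of 14 tested regulators of mitochondrial biogenesis rose and 2 fell, beside 38.8% and 37.6% of all genes. Tfam, which packages and transcribes mitochondrial DNA, was at 101.5, 93.9 and 92.3 CPM in day 10 cells, against 50.1, 42.9 and 47.6 CPM in MEF (1.03 ± 0.07). Nrf1 rose by 0.34 ± 0.07, Gabpa by 0.55 ± 0.11 and the coactivator Ppargc1b by 0.58 ± 0.13. Ppargc1a, its relative, was at no more than 0.821 CPM in every library of the first table. Of the electron carriers, Cycs, the somatic cytochrome c, was at 21.3, 28.2 and 28.3 CPM in day 10 cells and 36.8, 37.4 and 39.8 CPM in MEF (-0.55 ± 0.11). Citric acid cycle genes had 10 rises and 5 falls among 17, beside the same shares of all genes, citrate synthase (Cs) falling by 0.41 ± 0.06. With library totals alone neither Cycs nor Cs was called (-0.26 and -0.12, adjusted p = 0.0589 and 0.138). Ucp2, a mitochondrial carrier of the uncoupling protein family, rose by 3.99 ± 0.09.

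In totalx2 GFP- cells 13 of 17 citric acid cycle genes were lower at day 12 than at day 8 and 0 higher, beside 14.5% lower and 17.1% higher of all genes. Across GFP at day 12, 9 were higher and 2 lower in GFP+ cells, beside 31.2% and 30.4% of all genes, as were 6 and 0 of 13 biogenesis regulators, with Gabpa up by 0.82 ± 0.16, Tfam by 0.50 ± 0.09 and Nrf1 by 0.45 ± 0.09. The list of other assembly factors had 9 higher and 0 lower of 30, a share of rises close to the 31.2% of all genes. Cyct, the cytochrome c of male germ cells, was at 23.9, 22.5 and 28.5 CPM in GFP+ cells, against 0.286, 0.352 and 0.105 CPM in GFP- cells (6.56 ± 0.39, adjusted p = 7.69e-11). It was at 2.97, 4.12 and 5.03 CPM in KO clones, against 24.4, 15.3 and 15.1 CPM in WT clones (-2.16 ± 0.27, adjusted p = 5.69e-05), without overlap. The mitochondrially encoded subunits, 9 of 13 tested in the first table and 8 in the second, had 0 called between GFP+ and GFP- cells at day 12 in either set and at day 14 of naivex2. At day 10 of totalx2 mt-Co2 was called lower in GFP+ cells, at 1.84, 1.32 and 2.36 CPM, against 1.88, 23.5 and 1.51 CPM in GFP- cells, where replicate 2 alone is high. In iPSC against MEF mt-Atp6 was called higher, with 61 counts over iPSC and 12 over MEF. Both mt-Co2 and mt-Atp6 had few reads beside mt-Nd1, so neither call is taken as the level of the gene. Of the mitochondrially encoded subunits, the 7 rises in day 10 cells against MEF, 7 rises in WT clones against GFP+ cells, 6 falls in KO against WT clones and 4 falls in day 14 against day 10 GFP- cells all involve a group with a library of high mitochondrial share. mt-Nd1, for example, was at 17270 CPM in that day 10 library, with 4967 and 4966 CPM in the other replicates and 4088, 4395 and 4306 CPM in MEF.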

How the data were processed

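Polyadenylated RNA was sequenced with a strand-specific kit, per the labels' protocols. The authors deposited raw counts per gene name, made with featureCounts 1.5.3 in reverse-stranded mode (-s 2) over whole gene spans, per the file headers, so that introns count and a read in more than 1 gene is not counted. HISAT2 2.1.0, DESeq2 1.18.1 and mm10 are named in the submitters' processing notes.

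Each table was fitted alone, with all 7 groups, in edgeR 4.0.16 (R 4.3.3), with filterByExpr and TMM factors. The test is edgeR's quasi-likelihood F test with Benjamini-Hochberg adjustment over all genes tested, called at 0.05, and every adjusted p in the text comes from it. A standard error is the log2 fold change divided by the square root of its F. The numbers of lines pair samples by design. Deviations of same-numbered totalx2 samples correlated in all 30 pairs (r 0.126 to 0.593), those of naivex2 less (63 pairs, -0.121 to 0.359). Clone numbers do not pair (3 pairs, -0.0909 to 0.0163). The main fit had no term for the lines. Alternatives were DESeq2 1.42.0, other scalings and filters, a replicate block, fits of the compared groups alone and the removal of each library. The fit was tested on simulated counts of a fixed spread. In the first and second table it recovered 61% and 59% of genes changed by 0.5 on the log2 scale. Of those changed by 1 it recovered 100% in each. An uncalled member may thus still differ by an amount such as 0.5.

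The members and gene lists were chosen with earlier results of these data known, and numbers of members called are descriptions beside those of all genes. Members were named by a rule: of those called and averaging 10 CPM or more in whichever group was higher, the 6 largest rises and 6 largest falls, and always complex II, isoform genes and c-ring genes, and of the lists Nrf1, Tfam, Ppargc1a, Ppargc1b, Cycs, Cyct, mt-Nd1 and genes called with a fold over 4. Named after their values were seen were Atp5e, Uqcr10, Uqcrb, Cox5b, Cox6c, Atp5a1 and Cox5a in day 10 cells, Atp5b at day 14, Ndufs8 and Atp5o at day 12, Ndufs6 across GFP, Atp5k, Ndufs5 and Uqcrc1 in clones, Ndufa9, Gabpa and Cs. Not every gene that the naming rule picks is described in each comparison. Floors and counting intervals cover counting error only.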

Additional observations from a re-analysis of the deposited data

Results flagged for a closer look

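In totalx2 the difference between GFP+ and GFP- cells itself differed between day 12 and day 10 for 13 of 86 tested members. It was called higher at day 12 for 10.6% and lower for 16.7% of all genes. It was tested as day 12 minus day 10 on the log2 scale (edgeR's quasi-likelihood test, Benjamini-Hochberg adjustment). In complex IV it was 0.85 for Cox5a (adjusted p = 0.00365), 0.42 for Cox6c and 0.35 for Cox5b. In complex I it was 0.62 for Ndufb5 (adjusted p = 0.0024), 0.62 for the assembly factor Ndufaf5, 0.39 for Ndufs4, 0.35 for Ndufv2 and 0.28 for Ndufa10. In complex V it was 0.53 for the catalytic subunit Atp5b, 0.38 for Atp5c1, 0.34 for Atp5a1 and 0.28 for Atp5f1. Uqcrh of complex III, called lower in GFP+ cells at day 12 and not called at day 10, was the one with a negative value, -0.37. The calls of Cox5a, Ndufb5 and Atp5c1 held without each of the 12 libraries in turn. Those of the other 10 members were each lost without 5 or more of the libraries (adjusted p between 0.0501 and 0.171), and those of Cox5b and Atp5f1 without any 1 of the 12.

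Behind the Cox5a value, GFP+ cells were at 203, 215 and 209 CPM and GFP- cells at 91.2, 98.2 and 92.5 CPM at day 12. At day 10, GFP+ cells were at 142, 141 and 148 CPM and GFP- cells at 124, 109.5 and 115 CPM. The groups do not overlap on either day. Fibroblast markers moved with this contrast, with all 7 called lower (median -2.55), as did 2 of 4 leukocyte markers, also lower (median -2.28). The part of either in it was not tested.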

How the results depend on the processing

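Counts of members called higher and lower in the 15 tests are given here under each alternative where they moved by over 1.5 times. Shares of all genes under the alternatives are not given here, so no moved count is read as particular to the members. With a filter of at least 1 CPM in 3 libraries, or with mt- rows left out of the totals, none of the 30 counts moved so far. In KO against WT clones the replicate block gave 4 higher and 2 lower, DESeq2 3 lower, removal of the library of high mitochondrial share 1 higher, and a fit of the compared groups alone 0 lower. In WT clones against day 12 GFP+ cells the rises were 17 with RLE factors, 7 with library totals alone, 17 with DESeq2, 25 without that library and 5 in the groups alone, and the falls 22 with the block and 5 in the groups alone. The block moved no other count by over 1.5 times. Since clone numbers do not pair, the block is arbitrary in these comparisons with KO or WT clones. In day 10 cells against MEF the falls were 1 with library totals and 2 in the groups alone, and in iPSC against MEF 1 with library totals. For day 14 against day 10 GFP- cells the rises were 5 without the library of high mitochondrial share and 2 in the groups alone, and the falls 5 with library totals, 22 without that library and 7 in the groups alone. For naivex2 GFP+ against GFP- cells, the groups alone gave 6 rises and 9 falls at day 12 and 26 rises at day 14. Day 14 had 7 rises with library totals or no filter and 1 fall with RLE factors, and the contrast of both days 1 rise in the groups alone. Day 14 against day 12 GFP+ cells had 12 rises in the groups alone, 6 falls with library totals and 7 with no filter, and iPSC against day 14 GFP+ cells 9 rises with library totals. In totalx2, day 12 against day 8 had 3 rises and 23 falls with no filter and 21 falls with library totals. GFP+ against GFP- cells of day 10 had 1 rise and 1 fall with no filter, 4 falls with DESeq2 and 4 in the groups alone. Day 12 against day 10 GFP+ cells had 5 rises with library totals, 6 with no filter and 16 in the groups alone. The contrast of GFP differences had 4 rises with library totals, 3 with no filter, 19 with DESeq2 and 36 in the groups alone, and 0 falls with RLE factors, no filter or DESeq2. The cause of these shifts was not tested. Sdhb had the opposite sign with library totals alone, 0.046 in day 10 cells and 0.067 in iPSC against MEF. Cox8a and Sdhd, uncalled with all libraries, were at -0.1945 and -0.1759 in day 14 against day 10 GFP- cells without day 10 replicate 1, and up to 0.2178 and 0.1026 without another library. Ndufs5 in KO against WT clones was at 0.5019 without WT replicate 1 and -0.8237 without WT replicate 3.

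With each library left out in turn, rises and falls ran as follows: day 10 cells against MEF 53 to 68 and 3 to 5, day 14 against day 10 GFP- cells 5 to 8 and 7 to 22, naivex2 GFP at day 12 1 to 1 and 1 to 3, at day 14 6 to 12 and 0 to 3, day 14 against day 12 GFP+ cells 4 to 8 and 5 to 10, iPSC against day 14 GFP+ cells 8 to 15 and 17 to 24, and iPSC against MEF 51 to 59 and 4 to 6. In the second table they ran, for day 12 against day 8, 3 to 6 and 19 to 27, GFP at day 10 1 to 4 and 1 to 3, GFP at day 12 24 to 32 and 3 to 4, day 12 against day 10 GFP+ cells 6 to 9 and 2 to 3, WT clones against GFP+ cells 10 to 25 and 6 to 17, KO against WT clones 0 to 11 and 0 to 7, and the contrast of GFP differences 3 to 9 and 0 to 1. Members of few counts, such as Cox7b2, Cox7a1 and Cox4i2, are limited by depth.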

Other observations

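Cyct, the germ-cell cytochrome c, differed widely between lines of naivex2. GFP+ cells of day 14 held 31.9, 4.81 and 18.8 CPM in replicates 1, 2 and 3, and GFP- cells 4.16, 0.879 and 4.21 CPM. At day 12, GFP+ cells held 31.8, 5.32 and 15.9 CPM and GFP- cells 3.40, 1.39 and 2.91 CPM, so within each line GFP+ lay above GFP- cells. The iPSC clones held 28.4, 9.18 and 1.74 CPM, and MEF were at 0 in all 3 libraries.

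Cox7b2 in totalx2 and naivex2 was at most 0.854 CPM in every GFP- library. Ndufa4l2 also spread between clones, at 1.65, 0.971 and 2.30 CPM in KO and 0.400, 0.326 and 1.20 CPM in WT clones.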
